A study of Mus musculus with 4 samples.

Results

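Interferon response and antigen presentation genes were followed by RNA-seq of total RNA in mouse embryonic fibroblasts (MEF) that carry or lack Hmga2 and were given TGFB1 or not. The set comprised 44 genes chosen by name, with earlier results of these data known. All 44 had a transcript among the 63759 in the deposited table. Expression is given as RPKM, reads on the exons of a transcript per kilobase of transcript, scaled to the mapped reads of the library, for the transcript with the longest gene body of each gene. A mean of at least 0.5 RPKM over the 4 libraries was reached by 42 members and by 11089 of 20804 protein-coding genes. Oas3 and Ifitm1 were the 2 members below it.

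The 4 libraries were Hmga2+/+ Ctrl, Hmga2+/+ TGFB1, Hmga2-/- Ctrl and Hmga2-/- TGFB1, 1 library each. Both genotypes were C57BL/6 cells grown from E15.5 embryos freed of head, limbs, tail and inner organs and immortalized with SV40, so they are cultured lines and not a tissue. All cells were starved overnight in 1% FCS before treatment, and human recombinant TGFB1 was given at 10 ng/ml for 24 h while Ctrl cells received water. With 1 deposited column per condition the spread between cultures is unknown and no test was run. The TGFB1 responses of both genotypes are set side by side instead. Intervals in brackets are 95% intervals that cover the counting of reads only.

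Type I interferons bind receptors that signal through JAK kinases to a complex with STAT2 and IRF9, which binds the interferon-stimulated response element (ISRE). Type II interferon acts at the gamma-activated site (GAS) and through IRF1. The genes switched on in this way sense viral nucleic acids, block viral replication, conjugate ISG15 to proteins and raise the loading of peptides onto MHC class I. Fibroblasts keep many of these genes on at a low level without infection.

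Promoter sequence is shown first because the elements that respond to interferon recur in the set. Promoters of 250 bases before to 50 bases after the annotated start were taken from RefSeq for GRCm38.p6, the mouse build mm10, and 35 of the 44 members had an entry. The core of the ISRE, which reads GAAA, 2 bases of any kind and again GAAA, was searched on both strands. It was present in 18 of these 35 genes (51.4%), against 3.99% of 27025 genes with a promoter of this length. The GAS, read as TTC, 3 bases of any kind and GAA on either strand, was present in 9 of the 35 (25.7%), against 9.55% of all genes. In Bst2 and in Ifitm3 a GAS match overlapped an ISRE core match. Such a match is a description of the letters and not a measured binding site.

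Windows of 60 bases are printed for 9 members in the direction of each gene, with the core in capitals. Capitals that begin with GAAA are the core as written above, and those that begin with TTTC are the core on the other strand. They cover members with large, small and opposite values under TGFB1.
Ifit1, chr19:34640779-34640838, plus strand: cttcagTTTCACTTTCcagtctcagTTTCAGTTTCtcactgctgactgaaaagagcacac
Ifit3, chr19:34583382-34583441, plus strand: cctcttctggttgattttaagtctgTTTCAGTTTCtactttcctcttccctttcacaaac
Rsad2, chr12:26456538-26456597, minus strand: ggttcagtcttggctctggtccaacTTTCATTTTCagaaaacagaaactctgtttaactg
Gbp2, chr3:142620579-142620638, plus strand: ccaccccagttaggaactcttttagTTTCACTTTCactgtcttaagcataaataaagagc
Gbp3, chr3:142559980-142560039, plus strand: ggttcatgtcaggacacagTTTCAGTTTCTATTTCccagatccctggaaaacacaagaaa
Isg15, chr4:156200850-156200909, minus strand: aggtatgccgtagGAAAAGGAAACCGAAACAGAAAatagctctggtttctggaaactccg
Ifitm2, chr7:140955973-140956032, minus strand: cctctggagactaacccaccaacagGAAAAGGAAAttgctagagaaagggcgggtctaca
B2m, chr2:122147523-122147582, plus strand: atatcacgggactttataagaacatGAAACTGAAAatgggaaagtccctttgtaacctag
Cxcl10, chr5:92349068-92349127, minus strand: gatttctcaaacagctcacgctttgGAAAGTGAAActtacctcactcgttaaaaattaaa
Ifit1 holds 2 separate cores in its window, Gbp3 holds 2 that overlap, and Isg15 holds 3 in an unbroken run. The plot of matches along the promoters shows where each lies.

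**Figure D1:**
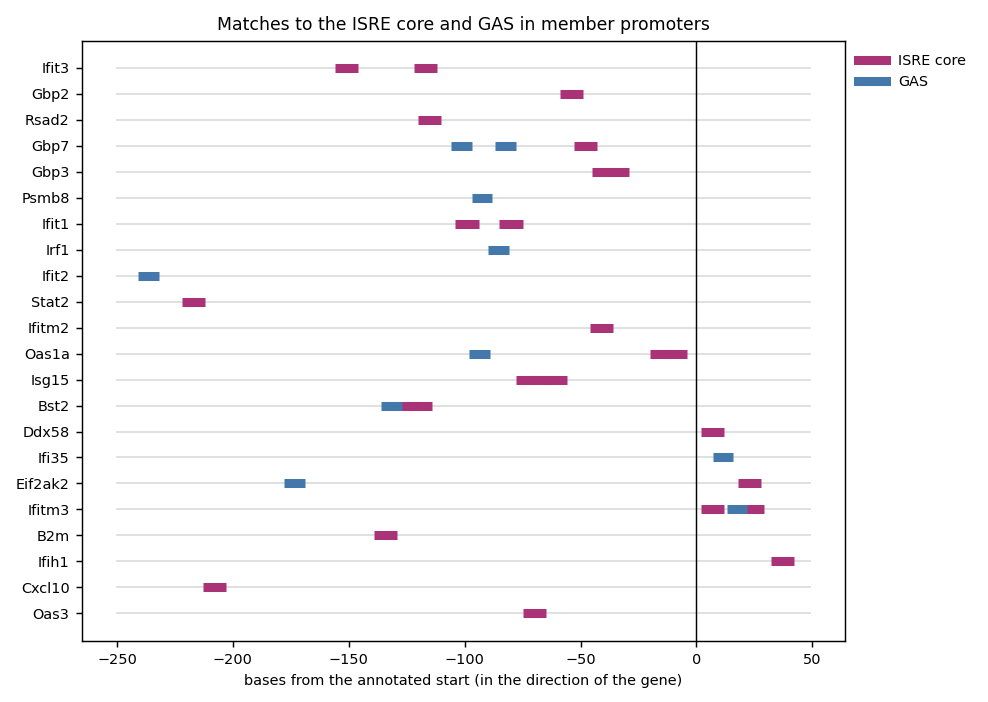
Positions of the ISRE core and GAS, on either strand, in the promoters of the 22 members with a match. The horizontal axis gives bases from the annotated start in the direction of the gene and grey lines mark the stretch searched. Genes are ordered from the lowest TGFB1 response in Hmga2-/- MEF at the top, with Oas3, which was below the level filter, at the bottom.

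The libraries behaved as labelled for the targeted gene and the treatment. Hmga2 had 14.8 and 40.7 RPKM in Hmga2+/+ Ctrl and TGFB1 and 0 reads in both Hmga2-/- libraries, at least 1191-fold and at least 3298-fold lower against a floor of 3 reads. Acta2, the smooth muscle actin gene induced by TGFB1 in fibroblasts, went from 15.9 to 58.3 RPKM in Hmga2+/+ MEF and from 48.2 to 165 in Hmga2-/- MEF. The depth derived from the RPKM was 56144000 to 57296000 mapped reads. All 8 fibroblast markers were expressed, none of 8 leukocyte and none of 4 epithelial markers reached 0.5 RPKM on average, and the summed leukocyte markers were 0.425, 0.163, 0.287 and 0.191 RPKM in the 4 libraries in the order above, with the T cell gene Cd3e at 0 in each. Of 4 endothelial markers 2 passed the filter and moved in opposite directions with TGFB1. Kdr went from 1.11 to 4.46 and from 1.46 to 7.39 RPKM in Hmga2+/+ and Hmga2-/- MEF, and Tek from 2.75 to 0.330 and from 5.65 to 0.686. The part of other cells in the results was not tested.

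Without TGFB1 the members were well expressed. In Hmga2+/+ Ctrl 38 of the 44 lay above 6.77 RPKM, the median of protein-coding genes that passed the filter. B2m, the invariant light chain of MHC class I, was the highest at 1068 RPKM, followed by the IFIT protein Ifit1 at 173 RPKM and the tetherin gene Bst2 at 146 RPKM. None of 20 interferon ligand genes reached the filter, and 15, 16, 18 and 19 of them were listed at 0 in the 4 libraries. Ifnb1, the fibroblast type I interferon, had 0.023, 0.023, 0.069 and 0 RPKM in these libraries.

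**Figure D2:**
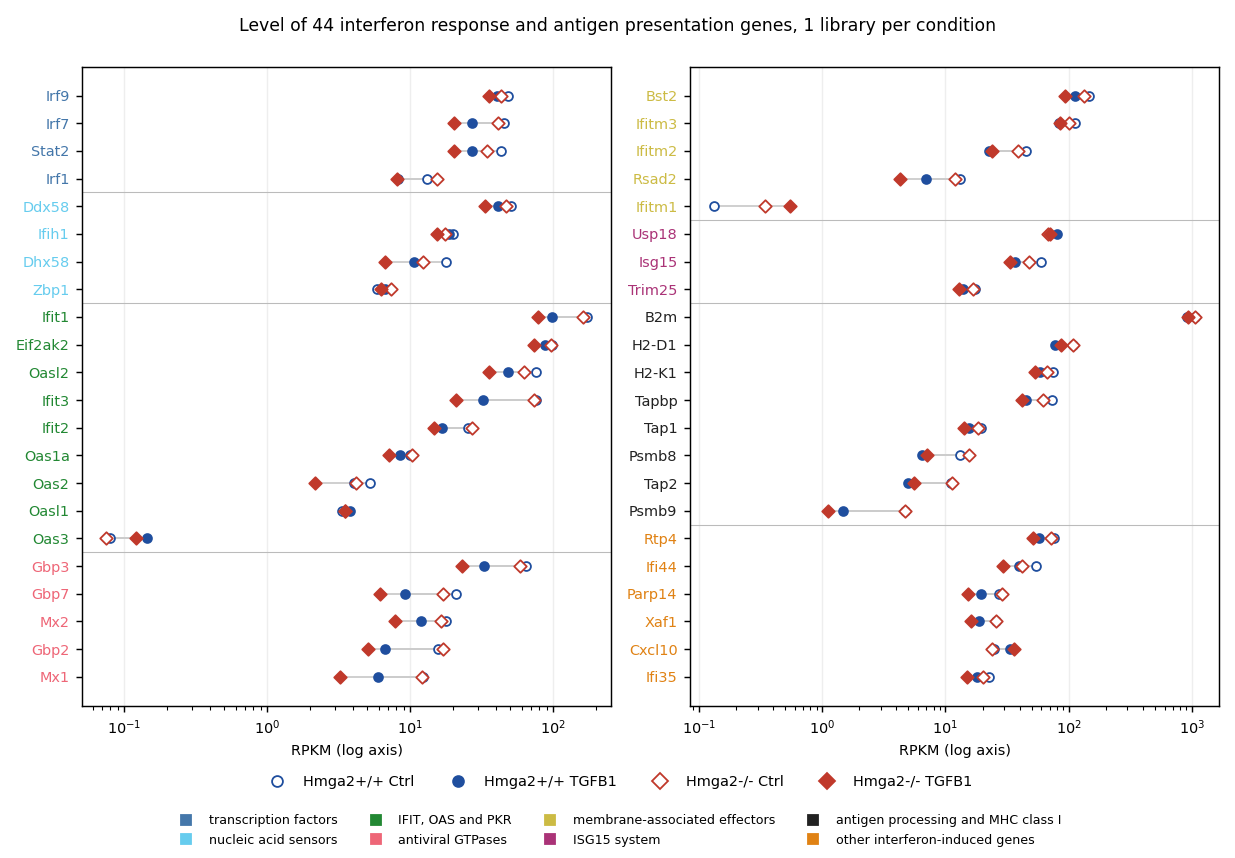
RPKM of all 44 members on a log axis, grouped by role (colour of the gene name), with 1 point per library (circles Hmga2+/+, diamonds Hmga2-/-, open Ctrl, filled TGFB1). Filled symbols sit to the left of open ones for most members, Cxcl10 is an exception in both genotypes, and Ifitm1 in Hmga2+/+ TGFB1 is at 0 and cannot be drawn.

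The first question was how the set moved with TGFB1 in Hmga2+/+ MEF. A change is called where it is at least 1.5-fold, with no test. Of the 42 members above the filter 20 fell and 0 rose, against 17.3% of all protein-coding genes that fell and 11.3% that rose. In all, 38 members had a ratio below 1, and their median was -0.49 on the log2 scale while that of all genes was -0.053. The summed level of the 44 members was 2907 RPKM in Ctrl and 2206 RPKM under TGFB1. In bulk RNA, fewer cells that express a gene and less RNA per cell cannot be told apart.

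In Hmga2-/- MEF 21 of the 42 members fell with TGFB1 and 0 rose, where 15.7% of all genes fell and 12.9% rose. Here 40 members had a ratio below 1, with a median of -0.61 beside 0.0061 for all genes. The summed level was 2749 RPKM in Ctrl and 2050 RPKM under TGFB1. The fall passed 1.5-fold in both genotypes for 18 members, against 13.0% of all genes. For Oas2, Xaf1 and Parp14 it passed only in the Hmga2-/- line (2.67% of all genes), and for Isg15 and Tapbp only in the Hmga2+/+ line (4.27% of all genes). Whether these members differ between the lines was not tested.

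Transcription factors of the pathway were among the genes that fell. Irf7, which drives amplification of type I interferon, went from 45.4 to 27.0 RPKM in Hmga2+/+ MEF and from 41.0 to 20.3 in Hmga2-/- MEF, log2 changes of -0.75 [-0.82, -0.68] and -1.02 [-1.09, -0.94]. Irf1, an effector of interferon gamma, went from 13.1 to 8.24 and from 15.3 to 8.02 RPKM. Stat2, a factor of the type I response, went from 43.0 to 27.1 and from 34.5 to 20.3 RPKM. These 3 fell in both genotypes, whereas Irf9, a DNA-binding subunit of the complex on the ISRE, went from 48.2 to 40.7 and from 43.2 to 35.5 RPKM and did not pass 1.5-fold. Outside the set, Ifngr1, a receptor chain for interferon gamma, had 13.9 and 18.5 RPKM in Hmga2+/+ MEF, within 1.5-fold, and rose without Hmga2 from 15.1 to 23.5 RPKM.

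Among the 4 nucleic acid sensors the fall was found in Dhx58 only. Dhx58 encodes LGP2, a regulator of RNA sensing, and went from 17.7 to 10.6 RPKM with Hmga2 and from 12.3 to 6.63 RPKM without it. The RNA sensors themselves stayed within 1.5-fold. Ddx58, which encodes RIG-I, had 51.0, 40.8, 46.7 and 33.5 RPKM, and Ifih1, which encodes MDA5, had 19.9, 18.6, 17.5 and 15.4 RPKM, in the order Hmga2+/+ Ctrl, Hmga2+/+ TGFB1, Hmga2-/- Ctrl and Hmga2-/- TGFB1. Zbp1, a sensor of Z-form nucleic acids, had 5.81, 6.69, 7.3 and 6.2 RPKM in this order. Its direction differed between the genotypes, at 0.20 [0.05, 0.36] and -0.24 [-0.38, -0.09]. Of 10 further expressed genes that act between sensing and interferon induction, 2 fell in both genotypes. These were the adaptor Ticam1, at 3.17, 1.71, 2.85 and 1.58 RPKM, and the kinase Ikbke, at 2.32, 0.950, 2.19 and 1.08 RPKM.

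The IFIT genes, whose products bind foreign RNA and block its translation, lie together on chromosome 19 (34550694 to 34650009, mm10) and all 3 fell in both genotypes. Ifit3 went from 75.3 to 32.5 RPKM in Hmga2+/+ MEF and from 72.9 to 20.9 in Hmga2-/- MEF, which is 2.32-fold and 3.48-fold lower. Ifit1 went from 173 to 97.9 and from 162 to 78.7 RPKM, and Ifit2 from 25.5 to 16.7 and from 27.1 to 14.6 RPKM. For Ifit2 in Hmga2+/+ MEF the log2 change of -0.61 was -0.56 with rescaled libraries and -0.58 with a pseudocount of 1 RPKM, both within 1.5-fold. For each IFIT gene the Ctrl libraries of both genotypes were within 1.5-fold of each other, and the lowest value of each was in Hmga2-/- TGFB1. Of the 50-base words of Ifit3, 51.2% also occur in the neighbouring gene Ifit3b, so reads on this pair may not be separable.

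The genes of the oligoadenylate synthetase family did not move as a block. Oasl2 fell in both genotypes, from 75.9 to 48.2 RPKM and from 62.7 to 35.5 RPKM. Oas2 had 5.26 and 4.06 RPKM in Hmga2+/+ MEF and 4.14 and 2.17 RPKM in Hmga2-/- MEF, so that only the latter change passed 1.5-fold, and the same held for each of its 4 transcripts. Oas1a went from 9.99 to 8.41 and from 10.3 to 7.05 RPKM without passing 1.5-fold, and 57.6% of its 50-base words also occur in Oas1g. Oasl1, the neighbour of Oasl2, stayed between 3.35 and 3.76 RPKM in all 4 libraries. Oas3 was near the detection limit, with 20 to 39 reads per library. Eif2ak2, which encodes the kinase PKR that stops translation, went from 97.7 to 87.2 and from 96.6 to 73.8 RPKM, within 1.5-fold.

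Antiviral GTPases formed the group in which all 5 members fell in both genotypes, although Mx2 in Hmga2+/+ MEF was only 1.51-fold lower. Its log2 change of -0.59 was -0.54 with rescaled libraries and -0.56 with a pseudocount of 1 RPKM, both within 1.5-fold. The median of their log2 changes was -1.05 in the Hmga2+/+ and -1.47 in the Hmga2-/- line. Mx1 went from 12.3 to 5.98 RPKM and from 12.1 to 3.24 RPKM, a log2 change of -1.05 [-1.16, -0.93] and -1.91 [-2.05, -1.76]. Mx2, next to Mx1 on chromosome 16, went from 17.8 to 11.8 and from 16.3 to 7.76 RPKM. The annotation types Mx2 as a polymorphic pseudogene, so it is not among the protein-coding genes used for comparison. The guanylate-binding proteins, which attack pathogen-containing vacuoles, are encoded side by side on chromosome 3 (142530336 to 142638008). Gbp2 went from 15.6 to 6.63 and from 16.9 to 5.03 RPKM, Gbp3 from 64.2 to 32.7 and from 58.2 to 22.8 RPKM, and Gbp7 from 21 to 9.23 and from 17.0 to 6.14 RPKM. For each of the 5 both TGFB1 libraries lay below both Ctrl libraries, and Hmga2-/- TGFB1 was the lowest.

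Membrane-associated effectors were mixed. Rsad2, which encodes viperin, fell in both genotypes, from 13.1 to 6.97 RPKM with Hmga2 and from 11.9 to 4.25 RPKM without it. Ifitm2, one of the proteins that block entry of viruses by fusion, fell from 44.9 to 22.8 and from 39.0 to 23.9 RPKM, and 48.5% of its 50-base words occur in other genes. Its neighbour Ifitm3 went from 112 to 82.7 and from 101 to 85.5 RPKM, and Bst2, which holds budding virus at the cell surface, from 146 to 113 and from 133 to 94.2 RPKM. Neither passed 1.5-fold. Ifitm1, in the same gene cluster on chromosome 7, was represented by 5, 0, 13 and 21 reads.

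In the ISG15 system the modifier and its protease differed. Isg15 fell from 59.5 to 36.8 RPKM in Hmga2+/+ MEF and went from 48.1 to 33.3 RPKM in Hmga2-/- MEF, which was within 1.5-fold. Usp18, which removes ISG15 and restrains the type I receptor, had 69.3 and 80.8 RPKM in Hmga2+/+ and 67.9 and 71.2 RPKM in Hmga2-/- MEF. Usp18 and Cxcl10 were the 2 of 42 members with a ratio above 1 in both genotypes. Trim25, a ligase for ISG15 and for RIG-I, went from 17.3 to 13.9 and from 16.9 to 12.9 RPKM.

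Antigen processing held the largest fall of the 42 members, next to genes that stayed within 1.5-fold. Psmb9, a catalytic subunit of the immunoproteasome, fell from 4.71 to 1.47 RPKM with Hmga2 and from 4.67 to 1.10 RPKM without it, or from 210 to 67 and from 210 to 50 reads. This is 3.20-fold and 4.23-fold lower, with log2 changes of -1.68 [-2.10, -1.27] and -2.08 [-2.55, -1.63]. Psmb8, another subunit of this proteasome, went from 13.2 to 6.39 and from 15.5 to 7.03 RPKM. The peptide transporter chain Tap2 went from 11.2 to 4.97 and from 11.3 to 5.51 RPKM. These 3 lie within chr17:34182099-34216321 together with Tap1, the other transporter chain, which went from 19.4 to 15.5 and from 18.3 to 14.2 RPKM and did not pass 1.5-fold.

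Psmb9 and Tap1 run in opposite directions from starts that are 225 bases apart, so this pair shares its promoter region, and the fall of Psmb9 passed 1.5-fold while the change of Tap1 did not. The stretch between their starts is printed for that reason, on the plus strand, which is the direction of Tap1, and it holds no match to the ISRE core.
Psmb9 to Tap1, chr17:34187331-34187555: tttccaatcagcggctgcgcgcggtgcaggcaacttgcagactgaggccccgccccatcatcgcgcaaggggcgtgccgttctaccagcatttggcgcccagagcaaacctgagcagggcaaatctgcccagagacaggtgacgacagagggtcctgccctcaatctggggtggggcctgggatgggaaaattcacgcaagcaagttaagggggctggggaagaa

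The constitutive proteasome subunits that the immunoproteasome subunits replace did not pass 1.5-fold in either genotype. The RPKM ratio of Psmb9 to Psmb6 was 0.104 in Hmga2+/+ Ctrl, 0.0282 in Hmga2+/+ TGFB1, 0.0940 in Hmga2-/- Ctrl and 0.0225 in Hmga2-/- TGFB1. That of Psmb8 to Psmb5 was 1.65, 0.674, 1.75 and 0.615 in the same order. Psmb10, which is no member, had a ratio to Psmb7 of 0.225, 0.0679, 0.210 and 0.0730. All 3 ratios were lower in each TGFB1 library than in either Ctrl library.

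The MHC class I molecules themselves stayed within 1.5-fold in the transcript reported for each gene. B2m had 1068, 907, 1054 and 925 RPKM in the 4 libraries, the heavy chain H2-K1 had 75.2, 58.6, 66.7 and 53.1 RPKM, and the heavy chain H2-D1 had 109, 77.4, 109 and 86.4 RPKM. In each case both TGFB1 libraries were below both Ctrl libraries. Of the 4 H2-D1 transcripts 1 passed 1.5-fold, in Hmga2+/+ MEF only, from 99.3 to 62.7 RPKM (-0.66). Heavy chain genes share sequence, with 14.3% of the 50-base words of H2-D1 and 8.11% of those of H2-K1 found in other genes. Tapbp, which encodes tapasin and couples class I to the transporter, fell from 73.5 to 45.4 RPKM in Hmga2+/+ MEF and went from 61.6 to 41.7 RPKM in Hmga2-/- MEF. Nlrc5, the transactivator of class I genes and no member, fell from 7.77 to 4.96 and from 8.02 to 4.12 RPKM.

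Of the 6 remaining interferon-induced members none fell in Hmga2+/+ MEF and 2 fell in Hmga2-/- MEF. Xaf1, linked to apoptosis, went from 25.6 to 18.6 RPKM with Hmga2 and from 25.6 to 16.1 RPKM without it, and Parp14, an ADP-ribosyltransferase, from 27.1 to 19.5 and from 28.7 to 15.3 RPKM. Only the changes in Hmga2-/- MEF passed 1.5-fold. Ifi44 had 54.1, 39.6, 41.8 and 29.2 RPKM, Ifi35 had 22.4, 18.2, 20.2 and 15.0 RPKM, and Rtp4 had 75.6, 57.4, 71.7 and 51.1 RPKM, all within 1.5-fold of Ctrl in either genotype. Cxcl10, a chemokine that attracts T cells, had 24.6 and 33.5 RPKM in Hmga2+/+ MEF and 24.0 and 35.9 RPKM in Hmga2-/- MEF. Its log2 change of 0.45 [0.35, 0.55] and 0.58 [0.49, 0.68] was the highest of the 42 members in either genotype and lay just under 1.5-fold in the latter.

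**Figure D3:**
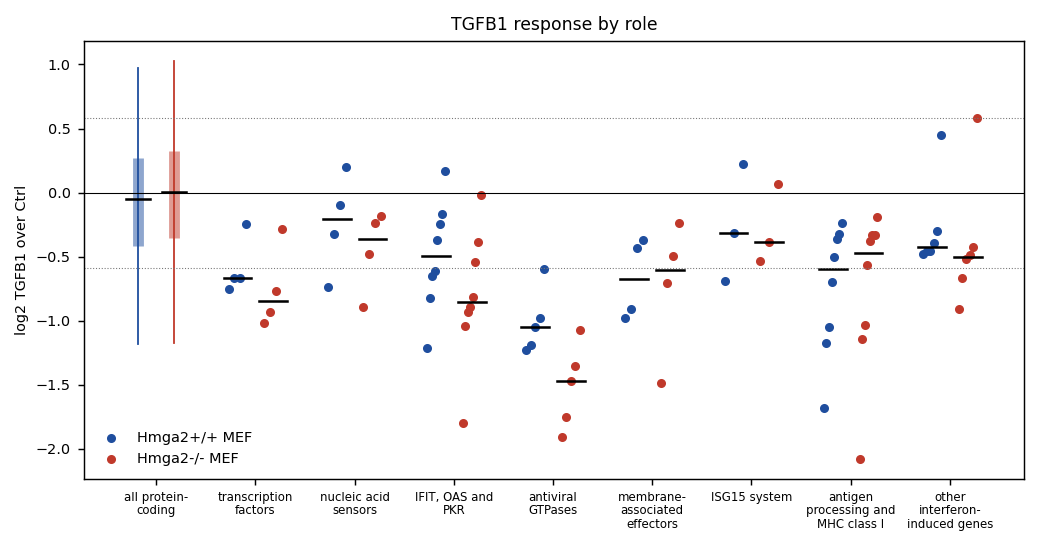
Log2 ratio of TGFB1 over Ctrl for the 42 members above the filter, by role (points, blue Hmga2+/+, red Hmga2-/- MEF), with the median of each role as a black bar. At the left the bar gives the quartiles, the thin line the 5th to 95th percentile and the black bar the median of 11089 protein-coding genes. Dotted lines mark 1.5-fold, which all 5 antiviral GTPases passed in both genotypes, Mx2 in Hmga2+/+ MEF only without rescaling or a pseudocount of 1 RPKM.

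Related genes outside the set, also chosen with earlier results of these data known, gave a similar count. Of 35 further interferon-induced genes 29 passed the filter, of which 15 fell in Hmga2+/+ MEF and 17 in Hmga2-/- MEF, 14 of them in both, and 0 rose. Ifi27l2a, for example, went from 62.3 to 29.6 and from 42.9 to 15.8 RPKM, and Uba7, the activating enzyme for ISG15, from 4.62 to 1.07 and from 2.92 to 0.600 RPKM. Of 12 other class I presentation genes 5 fell in Hmga2+/+ and 5 in Hmga2-/- MEF, among them Psmb10 in both, from 4.26 to 1.82 and from 4.77 to 2.02 RPKM. Pdia3, which encodes the chaperone ERp57 of the peptide-loading complex, rose from 291 to 462 RPKM in Hmga2-/- MEF. Of 9 negative regulators of the pathway, Socs1 fell in Hmga2+/+ MEF from 2 to 1.02 RPKM and the phosphatase Ptpn6 fell in both genotypes, from 0.693 to 0.185 and from 1.08 to 0.275 RPKM. Of 7 MHC class II genes only H2-DMa passed the filter, at 0.876, 0.371, 0.536 and 0.277 RPKM in the 4 libraries.

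The responses of the 2 genotypes share no library and could be set side by side. Across the 42 members Pearson's r of their log2 changes was 0.907 and Spearman's rho 0.895, beside 0.925 and 0.906 across all 11089 genes. Members are not independent replicates, and all points come from the same 4 libraries. The plot of both responses shows most members with large changes below the line of equal response.

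**Figure D4:**
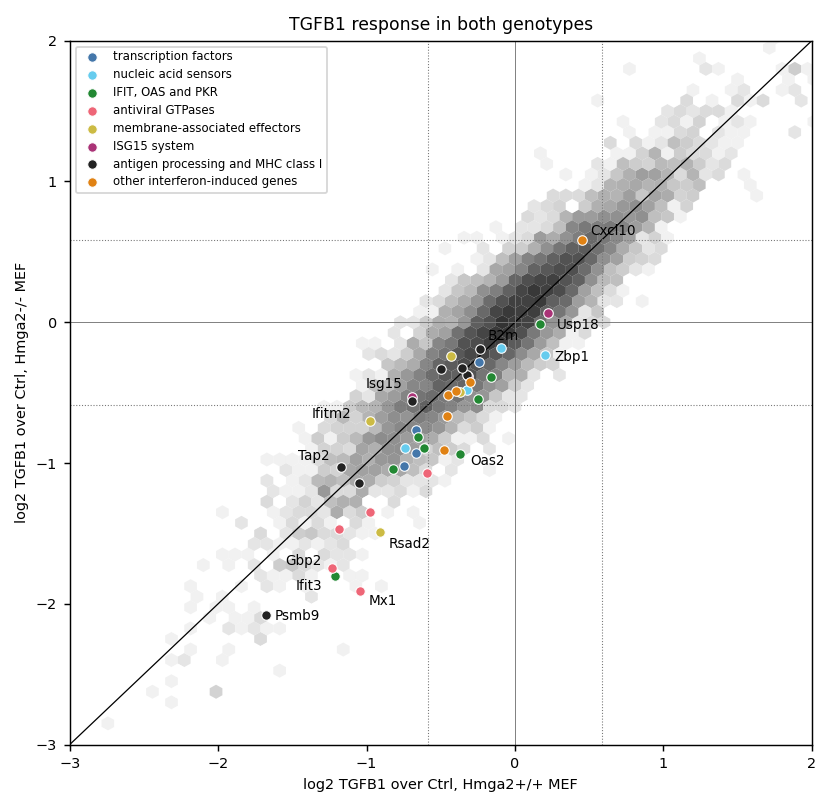
Log2 ratio of TGFB1 over Ctrl in Hmga2+/+ MEF (horizontal) against Hmga2-/- MEF (vertical), for protein-coding genes (grey, darker where there are more genes on a log scale) and the 42 members by role (colour). The solid line marks equal response and dotted lines 1.5-fold, and genes beyond the axes are not drawn. Mx1, Ifit3, Rsad2 and Oas2 lie below the line of equal response, and Ifitm2, Isg15 and Tap2 above it.

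The second question was whether the set differed between genotypes, by the ratio of Hmga2-/- over Hmga2+/+ MEF. These ratios use the same libraries as the TGFB1 responses. The genotypes are separate immortalized lines, so a difference by genotype cannot be told apart from one between lines. In Ctrl none of the 42 members passed 1.5-fold in either direction, where 2.41% of all genes were higher and 1.80% lower in Hmga2-/- MEF. The member median was -0.087 and that of all genes -0.016. The lowest ratio was that of Dhx58, at 17.7 RPKM in Hmga2+/+ Ctrl and 12.3 RPKM in Hmga2-/- Ctrl (-0.52 [-0.61, -0.43]), and the highest that of Zbp1 (0.33 [0.18, 0.48]).

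Under TGFB1 7 of the 42 members were lower in Hmga2-/- MEF by at least 1.5-fold and 0 were higher, against 2.15% of all genes that were lower and 3.19% that were higher. They were Dhx58, Ifit3, Oas2, Mx1, Mx2, Gbp7 and Rsad2. Oas2, at 4.06 against 2.17 RPKM, was 1.87-fold lower, and Mx1, at 5.98 against 3.24 RPKM, was 1.85-fold lower. In Ctrl the same comparison gave 5.26 against 4.14 RPKM for Oas2 and 12.3 against 12.1 RPKM for Mx1. The member median was -0.25, beside 0.039 for all genes. Of the 29 further interferon-induced genes 8 were lower by this measure.

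The third comparison was the difference of the 2 responses, the log2 change in Hmga2-/- MEF minus that in Hmga2+/+ MEF. It was below 0 in 33 of the 42 members and in 40.8% of all genes, with a median of -0.16 against 0.046. The counting interval lay below 0 in 25 members, against 15.1% of all genes, and above 0 in 6 members, against 24.9% of all genes. When libraries were rescaled so that the median gene did not change, a setting added after the data were seen, these were 30 and 4 members against 21.8% and 16.7% of all genes. Counting intervals leave out the variation between cultures, so they do not test the genotype. They also narrow as reads rise, and in Hmga2+/+ Ctrl 38 of the 44 members lay above the median RPKM of the filtered genes. The member counts and the shares of all genes therefore differ in resolution.

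The difference was lowest in Mx1 at -0.86 [-1.04, -0.68], followed by Ifit3 at -0.59 [-0.67, -0.50], Rsad2 at -0.58 [-0.71, -0.44], Oas2 at -0.56 [-0.76, -0.36] and Gbp2 at -0.52 [-0.68, -0.35]. All 5 antiviral GTPases, 7 of 8 expressed IFIT, OAS and PKR genes and all 4 sensors had an interval below 0. Of the 8 antigen processing and class I genes none did, and Tapbp, B2m and H2-D1 had one above 0, as did Ifitm2, Ifitm3 and Isg15. With rescaled libraries Tap1 had an interval below 0 (-0.11 [-0.20, -0.018]), and those of B2m (-0.0083 [-0.034, 0.018]) and Isg15 (0.11 [-0.028, 0.24]) included 0. For Psmb9, with 50 to 210 reads per library, the difference of -0.40 [-0.997, 0.19] was not resolved at this depth.

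**Figure D5:**
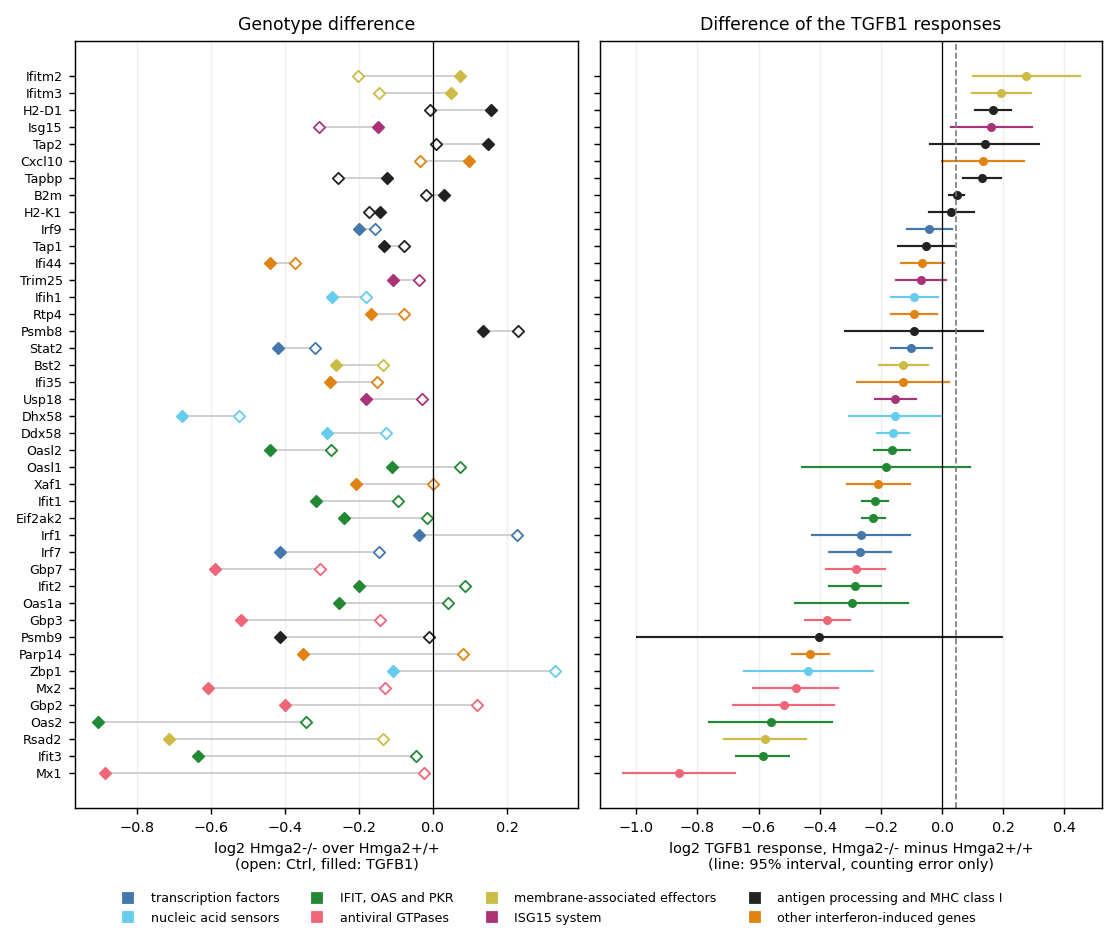
Left, log2 ratio of Hmga2-/- over Hmga2+/+ MEF for the 42 members in Ctrl (open) and under TGFB1 (filled). Right, log2 TGFB1 response in Hmga2-/- minus Hmga2+/+ MEF with its 95% counting interval, where the dashed line is the median of all genes at 0.046. Members are ordered by the right panel, lowest at the bottom, and coloured by role. Near the bottom, Mx1 and Ifit3 have open symbols near 0 and filled symbols to the left. The open symbols of Oas2 (-0.34) and Zbp1 (0.33) lie further from 0.

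Falls were counted in members with and without the promoter core, and the difference was not tested. Of the 17 expressed members with an ISRE core 9 fell in Hmga2+/+ MEF and 8 in Hmga2-/- MEF, with medians of -0.67 and -0.54. Of the 16 expressed members with a promoter entry and no core 7 fell in each genotype, with medians of -0.48 and -0.54. The 9 expressed members without a promoter entry, among them Mx1, Mx2, Oas2 and Parp14, could not be placed. Of these 4 fell in Hmga2+/+ and 6 in Hmga2-/- MEF, with medians of -0.48 and -0.91. Among all protein-coding genes 17.3% fell in Hmga2+/+ and 15.7% in Hmga2-/- MEF. Ifit1, Ifit3, Gbp2 and Rsad2 carry a core in the printed windows and fell in both genotypes, whereas B2m and Cxcl10 carry the core and did not pass 1.5-fold.

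Several transcripts were listed for 26 members. Of all 105 member transcripts 101 passed the filter, of which 44 fell in Hmga2+/+ MEF and 51 in Hmga2-/- MEF, while 0 and 1 rose. The share of all transcripts that fell or rose is not given here. Shares given above count 1 transcript per gene and cannot be set beside these counts. In 11 members more than 5% of the 50-base words also occur in another gene, so their values are uncertain where reads were shared. Besides those given above these include Rtp4 (13.7%), Gbp7 (12.9%) and Ifitm3 (10.0%). Transcripts of a gene overlap and share reads, so they are not separate measurements. For B2m the second transcript had 29.2 and 18.6 RPKM in Hmga2+/+ Ctrl and TGFB1 (-0.65), a level far below the 1068 RPKM of the transcript reported above.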

How the data were processed

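Total RNA of 4 MEF libraries, 1 per genotype and treatment, was sequenced. Per the labels and the study's methods, the authors used Trimmomatic for trimming, HISAT2 2.1.0 for mapping to mm10 and HOMER for counting sense reads over UCSC known genes. They deposited RPKM for 63759 transcripts, which is already normalized for length and depth, and the transcript length in bases. Exons are the counted feature in the file header and genes in the methods. The methods speak of sequencing in duplicates of an experiment, while each condition is a single deposited column. Pooling of duplicates is not described, and how reads with several positions were treated is not given in the sources used here. All per-sample columns were used.

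Transcripts were named where at least 50% of their span overlapped a gene of GENCODE M21 with the same strand (57708 of 63759). The transcript with the longest gene body stood for each gene. A 0 was set to 0.001 RPKM, as in the study, and ratios were called at 1.5-fold among genes with a mean of at least 0.5 RPKM. Because a low RPKM is a whole number of reads divided by length and depth, the depth of each library was found as the value that makes values of transcripts under 600 bases whole within 0.1 read (100% of 1979 to 2024 values per library). Reads recovered in this way gave exact Clopper-Pearson 95% intervals of ratios and, for the difference of 2 ratios, a normal approximation on log reads. PCR copies are not independent molecules, so intervals cover counting error only. With 1 column per condition no count test was run. Scripts ran under Python 3.11.15 with scipy 1.17.1, numpy 2.4.6, pandas 2.3.3 and matplotlib 3.10.9 and were tested on simulated data.

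The members, the related gene lists and the cell type markers were chosen with earlier results of these data known. The text names every member, Hmga2 and Acta2 as checks, the transcripts of some members, Ifnb1, Nlrc5, and genes of the related lists that passed 1.5-fold in at least 1 comparison. The constitutive subunits Psmb5, Psmb6 and Psmb7, the endothelial markers and Cd3e are given for reference. Settings of the value for 0, the filter, the fold, the scaling and the choice of transcript were varied. Some genes of the related lists are not reported here.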

Additional observations from a re-analysis of the deposited data

Results flagged for a closer look

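Zbp1, Oasl1 and Ifitm1 drew attention because the TGFB1 response had opposite signs in the 2 genotypes, and in none of them was the difference tested, since each condition has 1 library. For Zbp1 the log2 change was 0.20 in Hmga2+/+ MEF and -0.24 in Hmga2-/- MEF, on 644 to 816 reads per library. For Oasl1 it was 0.17 and -0.015, on 397 to 455 reads, and both counting intervals included 0. With the Oasl1 transcript of most reads the changes were 0.086 and 0.096, and with that of greatest length -0.035 and -0.17, so the signs did not differ under either choice. For Ifitm1 it was -0.77, with the 0 reads of Hmga2+/+ TGFB1 set to the floor of 3 reads, and 0.69 in Hmga2-/- MEF, on at most 21 reads. Zbp1 and Oasl1 stayed within 1.5-fold in both genotypes.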

How the results depend on the processing

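Of 115 recomputed counts and medians 101 were called the same and 14 were not. A count was called the same within 1.5 times the reported value, and a median if it moved by less than 0.585 on the log2 scale. Only a median of at least 0.585 in size could be called reversed. This held for the TGFB1 response in Hmga2-/- MEF alone (-0.61), which did not reverse. The other medians were smaller than this tolerance. With the filter at 0.1 RPKM or without one, Oas3 and Ifitm1 entered, so that 1 member rose in Hmga2+/+ MEF, 2 rose in Hmga2-/- MEF, 1 was higher in Hmga2-/- MEF in Ctrl and 1 under TGFB1, and 1 (Ifitm1) changed past 1.5-fold in opposite directions. At 2-fold, 7 members fell in Hmga2+/+ MEF and 12 in Hmga2-/- MEF, against 7.19% and 6.96% of all genes. At this threshold 0 members were lower in Hmga2-/- MEF under TGFB1, against 0.658% of all genes. With the transcript of greatest length, 1 member (Cxcl10) rose in Hmga2-/- MEF. Of 880 recomputed ratios of single members 843 lay within the counting interval, 35 did not, and 2 that had passed 1.5-fold reversed, both for Ifitm1 in Hmga2-/- MEF, at -0.075 with the transcript of most reads and with that of greatest length. Changes within 1.5-fold that crossed 0 were not counted as reversed, as for Oasl1 with either of these transcripts. Members with 1 listed transcript kept the same ratio under both choices of transcript, and only 26 of the 44 had several. Rescaling the libraries or a pseudocount of 1 RPKM left 18 members that fell in Hmga2+/+ MEF, without Ifit2 and Mx2, and 21 in Hmga2-/- MEF. Of all genes 15.4% in Hmga2+/+ and 15.9% in Hmga2-/- MEF fell after rescaling, and 10.5% and 9.66% with that pseudocount. Under TGFB1 7 members were lower in Hmga2-/- MEF after rescaling and 5 with that pseudocount, without Mx2 and Gbp7. The shares of all genes that were lower were 2.38% and 0.622%. No paired analysis was possible because the libraries share no replicate numbers that could pair separate cultures. Ctrl and TGFB1 correspond only within a genotype, and a fit that takes the 2 genotypes as pairs was not run. Variation between cultures cannot be estimated, and members near the filter rest on few reads.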
